A study of Mus musculus with 2 samples.

Results

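Retnla, Chil3, Ear2, Fn1, Lyz1, Lyz2 and Aldh1a2, 7 of the 32285 genes counted, were followed across the leukocytes of the mouse adrenal gland. They were listed by name, with earlier results of these data known, as a set titled Retnla, Chil3 and alternative activation genes. The title does not mean that all 7 are genes of alternative macrophage activation. Each of the 7 was detected in both libraries. Adrenal glands of C57BL/6 mice aged 7 weeks were digested enzymatically, live CD45+ cells were sorted, and their transcripts were counted in droplets, cell by cell. One library came from female and one from male mice, all untreated, and the number of animals behind each library is not given in the sources used here. With 1 library per sex the variation among animals is unknown, so no test was run, and every interval below is a 95% interval that covers counting error alone.

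Retnla encodes resistin-like molecule alpha, and Chil3 a chitinase-like protein that binds sugar polymers without cleaving them. Both are secreted products of mouse macrophages exposed to the type 2 cytokines, and the transcription factor STAT6 carries that signal to the nucleus. Ear2 encodes a secreted ribonuclease of the eosinophil-associated family, and Fn1 encodes fibronectin, a large adhesive glycoprotein of plasma and matrix. Lyz1 and Lyz2 are neighbouring copies of the lysozyme gene, which cleaves bacterial cell walls, and Lyz2 is widely used to mark myeloid cells. Aldh1a2 encodes a retinaldehyde dehydrogenase that makes retinoic acid. Cells rich in several of these products have been described among macrophages of serous cavities and of connective tissue, whereas Chil3 and Fn1 are also products of circulating monocytes.

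Positions are those of the GENCODE annotation on GRCm38, the build that the submitters' processing notes name as mm10. Retnla (ENSMUSG00000061100) lies at chr16:48842551-48844461 on the plus strand with 4 exons, and Chil3 (ENSMUSG00000040809) at chr3:106147554-106167564 on the minus strand. Ear2 (ENSMUSG00000072596) lies at chr14:44102654-44103534, Fn1 (ENSMUSG00000026193) at chr1:71585520-71653200 and Aldh1a2 (ENSMUSG00000013584) at chr9:71215789-71296243. Lyz1 (ENSMUSG00000069515, chr10:117287797-117292868) and Lyz2 (ENSMUSG00000069516, chr10:117277331-117282321) sit in tandem on the minus strand, 5475 bases apart. No other gene overlapped any of them on the same strand. The protocol counts the 3′ end of a transcript with 55-base reads, and near-identical relatives can share such reads. Among all 55-base windows of the last 500 bases of each transcript, 34.1% of those of Ear2 also occurred in another gene (Ear1, Ear6 or Ear10 among them), 16.7% of those of Chil3 (Chil4, Gm6522), 13.9% of those of Lyz1 and of Lyz2 (each other), 1.12% of those of Fn1, and none of those of Retnla or Aldh1a2. The counts of Ear2, Chil3, Lyz1 and Lyz2 are uncertain for reads from such windows. The share of reads that came from them was not measured.

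The sequences upstream of 6 of the 7 genes were found in RefSeq's promoter table (GRCm38.p6), and 4 are shown, those of the 3 genes that held a match to the letters searched and that of Lyz2 to set beside Lyz1. Each is written 5′ to 3′ on the strand of the gene and ends at the base before the annotated gene begins, from chr16:48842359-48842550 for Retnla, chr14:44102404-44102653 for Ear2, chr10:117292869-117293118 for Lyz1 and chr10:117282322-117282522 for Lyz2. Capitals mark matches, on either strand, to 3 sets of letters.
Retnla: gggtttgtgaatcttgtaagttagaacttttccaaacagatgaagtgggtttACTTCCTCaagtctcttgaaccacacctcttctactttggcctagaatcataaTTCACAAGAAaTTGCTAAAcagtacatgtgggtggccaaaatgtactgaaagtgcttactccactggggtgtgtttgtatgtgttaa
Ear2: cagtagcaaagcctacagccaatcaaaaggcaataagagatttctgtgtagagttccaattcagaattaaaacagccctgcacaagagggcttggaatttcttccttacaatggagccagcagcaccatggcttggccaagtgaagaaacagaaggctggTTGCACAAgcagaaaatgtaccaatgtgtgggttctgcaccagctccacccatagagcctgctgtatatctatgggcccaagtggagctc
Lyz1: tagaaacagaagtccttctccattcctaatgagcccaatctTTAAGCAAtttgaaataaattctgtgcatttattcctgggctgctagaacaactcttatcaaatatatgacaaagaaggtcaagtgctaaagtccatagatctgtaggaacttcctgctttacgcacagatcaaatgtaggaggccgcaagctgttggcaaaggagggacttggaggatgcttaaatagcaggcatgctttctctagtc
Lyz2: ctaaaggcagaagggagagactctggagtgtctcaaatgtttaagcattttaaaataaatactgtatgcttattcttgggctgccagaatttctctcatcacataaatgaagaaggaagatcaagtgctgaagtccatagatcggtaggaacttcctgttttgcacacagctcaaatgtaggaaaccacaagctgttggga
The letters searched were TTCNNNNGAA (a STAT6-type motif, the same on both strands), TTGCNNAA (C/EBP-type) and GAGGAAGT (PU.1-type), over the 250 bases before the RefSeq start of each gene. Retnla held all 3, the STAT6-type match 145 bases, the C/EBP-type match 134 bases and the PU.1-type match 198 bases before that start. In Retnla the STAT6-type and C/EBP-type matches were separated by 1 base and did not overlap. Ear2 held a C/EBP-type match 90 bases and Lyz1 one 209 bases before the start, and the windows of Lyz2, Chil3 and Aldh1a2 held none of the 3. Of 32851 promoter windows of the same length, 5.85% held the STAT6-type letters, 9.56% the C/EBP-type and 2.44% the PU.1-type letters. The windows of Lyz1 and Lyz2 were identical at 205 of 240 aligned bases (85.4%). A match is a run of letters and not a measured binding site.

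After filtering, 3693 female and 2450 male cells remained, with 15020494 and 9014391 unique molecular identifiers (UMIs, each standing for 1 captured transcript), the median cell holding 3491 and 2988 UMIs. 2 cell barcodes occurred in both libraries. Cells were clustered with all 7 genes, their families and the comparison lists held out of the features, so no cluster was built from them. Clusters were named from marker genes with the suffix "-like" implied throughout: monocytes (297 female and 177 male cells), dendritic cells (DCs, 168 and 125), neutrophils (47 and 50), B cells (517 and 269), T cells (691 and 374), natural killer (NK) cells (865 and 369) and plasmacytoid DCs (28 and 17). Adrenal gland macrophages (AGMs) formed a Lyve1-high cluster (89 and 164 cells) that expressed Lyve1, Timd4, Cd209f, Cd209g, Fcna and Cbr2, and 4 further clusters kept together as other AGMs (652 and 530 cells). The Lyve1-high cells were the shallower, with medians of 1749 and 1921.5 UMIs against 3955.5 and 3493.5 in other AGMs, and had a median mitochondrial share of 5.35% and 5.45% of UMIs against 2.94% and 2.83%.

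One cluster of 84 female and 98 male cells took no cell type name and is called Fcrls-high, after the gene for an Fc receptor-like protein. In CPM (UMIs of a gene per 1000000 UMIs summed over the cells of a class), Fcrls stood at 970 CPM in the female and 834 CPM in the male cells of this cluster, at 415 and 455 CPM in Lyve1-high AGMs and at 26.3 and 34.3 CPM in other AGMs. The 9 macrophage markers (Csf1r, Adgre1, Mertk, C1qa, C1qb, C1qc, Fcgr1 and Cd68 among them) summed to 1891 and 2334 CPM there, against 18071 and 18818 CPM in other AGMs and 14334 and 16774 CPM in Lyve1-high AGMs, and none of the 9 was at 0. The 9 monocyte markers summed to 285 and 447 CPM against 8034 and 6958 CPM in monocytes, and 4 of them in the female and 2 in the male library were at 0. The chemokine receptor gene Ccr2 was at 1385 and 1552 CPM, against 1115 and 1232 CPM in monocytes and 695 and 987 CPM in DCs, and the MHC class II gene H2-Aa at 5517 and 5700 CPM, against 1150 and 2176 CPM in monocytes and 8675 and 10006 CPM in DCs. Single markers of other lists were also past 2-fold above other AGMs, beside 6.76% of all genes with at least 50 UMIs on either side. They were Ifitm6 (205 and 311 CPM), 1 of 2 monocyte markers with that many UMIs, and Batf3 (274 and 301 CPM), 1 of 2 DC markers. Il1rl1 (232 and 173 CPM) was the only 1 of 7 group 2 innate lymphoid cell markers with that many. With so few measured, these lists are not read as differing from all genes. The 10 DC markers summed to 388 and 422 CPM, against 1492 and 1774 CPM in DCs, with 4 of them at 0 in each library. The markers did not place this cluster in a class, and it was kept apart from AGMs and monocytes in every comparison.

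Retnla was concentrated in the Fcrls-high and Lyve1-high clusters. Female Fcrls-high cells held it at 16228 CPM (15744 to 16722, 4265 UMIs) and male ones at 18824 CPM (18404 to 19252, 7629 UMIs), and Lyve1-high AGMs at 11030 CPM (10619 to 11453) and 9683 CPM (9378 to 9995). Most of its transcripts lay there, since 56.1% and 61.3% of the library's Retnla UMIs were in Fcrls-high cells and 35.7% and 30.6% in Lyve1-high AGMs. The other AGMs, with more cells than both together, contributed 1.59% and 1.24%.

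All other classes were lower by more than an order of magnitude. Plasmacytoid DCs were at 280 and 28.0 CPM, with 25 of the 27 female UMIs in 1 cell and a single male UMI. Female DCs held Retnla at 184 CPM (155 to 216) and male DCs at 591 CPM (531 to 655), with monocytes at 33.8 and 111 CPM, other AGMs at 41.8 and 70.4 CPM and neutrophils at 24.1 and 89.9 CPM, the last from 2 and 8 UMIs. B, T and NK cells, pooled as lymphocytes, stood at 31.4 CPM (27.8 to 35.3) and 61.7 CPM (54.3 to 69.8). Among the male cells, the intervals of monocytes, neutrophils, other AGMs, NK, B and T cells each overlapped that of the next class in the order, and in the female library the same held from other AGMs through monocytes, neutrophils and T cells to NK cells. Outside the 2 clusters, DCs were thus the one well-sampled class whose level lay clear of lymphocytes in both libraries. Without the 5 highest cells of each class DCs fell to 48.7 and 182 CPM, against 16.7 and 50.3 CPM in lymphocytes. Their level was not shared by all DCs, and those led by Xcr1 were at 17.3 and 39.5 CPM.

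**Figure D1:**
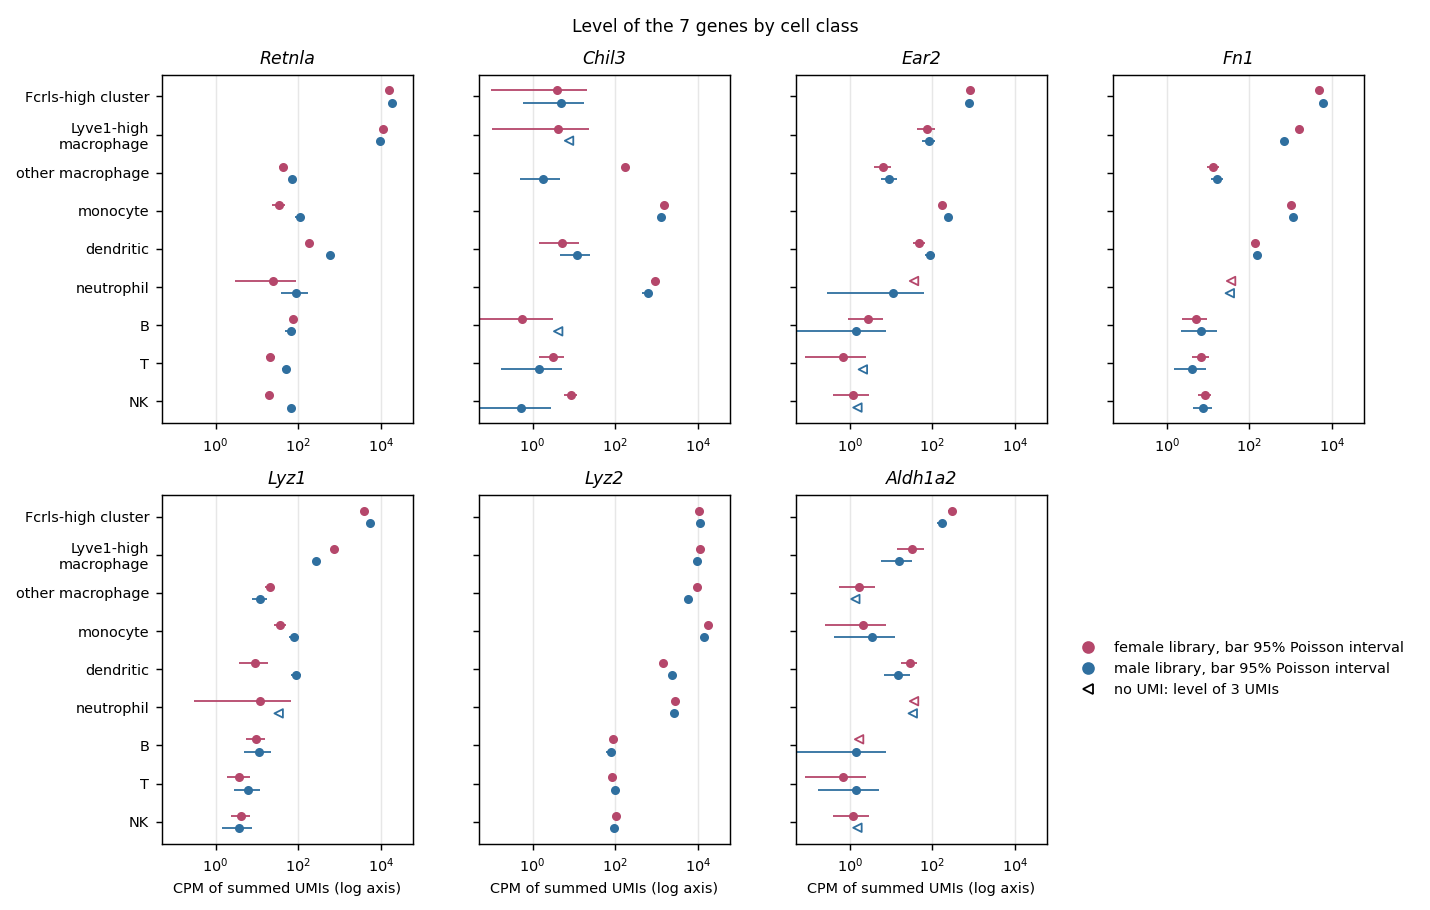
Level of each gene (x axis, CPM of summed UMIs, log axis) by cell class (y axis) in the female and male library; bars are 95% Poisson intervals and open triangles mark classes without a UMI, drawn at the level of 3 UMIs. Retnla, Fn1, Lyz1, Ear2 and Aldh1a2 were highest in the Fcrls-high cluster, Chil3 and Lyz2 in monocytes, in both libraries.

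The shares of cells with a Retnla UMI, taken at equal depth, were also highest in Fcrls-high cells and next in Lyve1-high AGMs. After each cell was thinned at random to 1000 UMIs, 91.9% (83.2 to 97.0) of female and 95.5% (88.9 to 98.8) of male Fcrls-high cells kept a Retnla UMI, against 55.6% (43.4 to 67.3) and 61.0% (52.3 to 69.3) of Lyve1-high AGMs. DCs gave 6.67% (3.37 to 11.6) and 13.9% (8.33 to 21.4), lymphocytes 3.05% and 7.32%, other AGMs 3.45% and 7.82%, and monocytes 2.27% (0.839 to 4.88) and 10.98% (6.64 to 16.8). The intervals of DCs, other AGMs and monocytes overlapped that of lymphocytes in each library, though overlap alone does not make shares alike. The DC intervals began above the lymphocyte shares of 3.05% and 7.32%, whereas those of monocytes included them. None of these shares was tested against background. By level, male monocytes at 111 CPM (85.7 to 142) lay above male lymphocytes, and at 85.3 against 50.3 CPM without the 5 highest cells, whereas the female intervals overlapped. The Ace-led monocytes described below reached 59.9 and 244 CPM, with a UMI in 12 of 107 and 25 of 70 cells and no more than 3 in a cell. Cells under 1000 UMIs were left out of these shares, 10 and 9 in the Fcrls-high cluster, 17 and 28 among Lyve1-high AGMs and 39 and 29 among lymphocytes. Without thinning, the shares were 92.9% and 98.0% in Fcrls-high cells, 62.9% and 72.0% in Lyve1-high AGMs and 6.80% and 18.7% in lymphocytes, at median depths of 3705 and 3769 UMIs for the last.

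Within the 2 clusters the gene was spread differently. Among Fcrls-high cells, 6 female and 2 male cells had no Retnla UMI, 57 and 59 had 10 to 99, and 11 and 24 had 100 or more, up to 336 and 409 UMIs in a single cell. It took 15 cells of each library to reach 50% of the cluster's Retnla UMIs, and the 5 highest cells held 25.5% and 23.7%. Among Lyve1-high AGMs 33 of 89 and 46 of 164 cells had none, and 29 and 63 had 10 to 99. In the female library 4 Lyve1-high cells held at least 50% of the UMIs and the 5 highest held 58.6%, with 541 in the highest, whereas in the male library it took 14 cells and the 5 highest held 25.8%. The median cell carried 129 and 137 Retnla UMIs per 10000 in the Fcrls-high cluster and 27.1 and 36.2 in Lyve1-high AGMs. The female Lyve1-high level thus rested on few cells, and without the 5 highest it was 5575 CPM, against 7708 CPM in the male library.

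**Figure D2:**
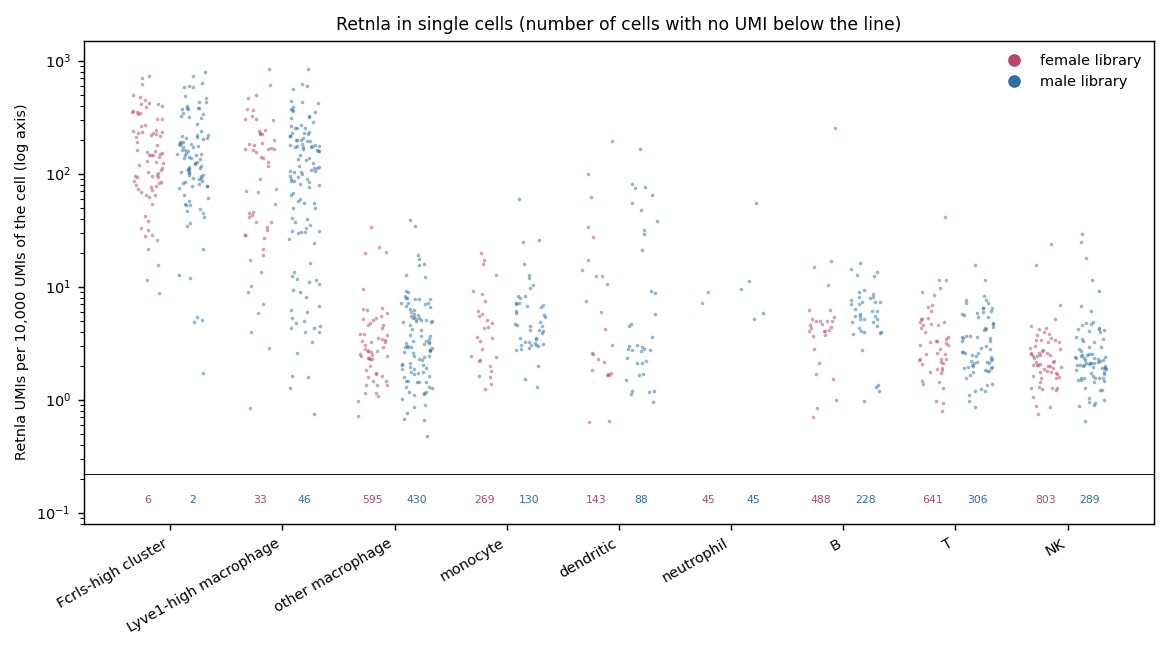
Retnla in single cells (y axis, UMIs per 10000 UMIs of the cell, log axis) by cell class (x axis), with each point 1 cell of the female or male library and the number of cells without a UMI under the line. The Fcrls-high and Lyve1-high clusters reached 736.5 or more UMIs per 10000 in the highest cells, and most cells of the other classes had none.

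Sub-clusters showed where Retnla varied. The Fcrls-high cluster split into cells led by Il1rn, Mucl1 and Ccl9, with Retnla at 16896 CPM (54 female cells) and 14648 CPM (50 male cells), and cells led by Fcrls, Socs6 and Hr, at 15680 CPM (30 cells) and 20714 CPM (48 cells). Both parts were high in both libraries, and their order differed between the libraries. The Il1rn-led cells were the shallower, with medians of 1682 and 1889 UMIs against 4302 and 5180.5 in the Fcrls-led cells. Lyve1-high AGMs split into cells led by Mucl1, Cbr2 and Cd209g, at 14343 CPM (63 cells) and 11826 CPM (77 cells), and cells led by Fcna, Lyve1 and Saa3, at 4922 CPM (26 cells) and 7386 CPM (87 cells). By summed UMIs the Mucl1-led part was the higher in both libraries. By the median cell it was so only in the male library, at 60.1 against 30.4 Retnla UMIs per 10000, and the female medians ran the other way, at 21.6 against 31.1, where 4 cells held at least 50% of the UMIs of the Mucl1-led part. Among DCs, Retnla was at 872 and 1469 CPM in a cluster led by Cd209a, Upb1 and Slc27a3 (39 and 36 cells), and 17.3 and 39.5 CPM in the Xcr1-led cluster (44 and 36 cells). The largest DC cluster, led by Cd209a, Cd209d and Tnni2 (85 and 53 cells), was at 15.2 and 403 CPM, with 75 of the 90 male UMIs in 1 cell. In the DC class as a whole 3 cells of each library held at least 50% of the UMIs, and the 5 highest held 74.1% and 71.0%. In that Upb1-led DC cluster Fn1, at 544 and 412 CPM, and Ear2, at 177 and 183 CPM, were also the highest among the DC clusters. The 4 clusters of other AGMs lay between 17.9 and 62.4 CPM in the female and between 57.4 and 80.6 CPM in the male library.

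Chil3 followed a different set of cells. It was highest in monocytes, at 1504 CPM (1427 to 1584, 1426 UMIs) in the female and 1292 CPM (1201 to 1389, 743 UMIs) in the male library. Monocytes held 69.4% and 88.6% of the library's Chil3 UMIs. Thinned to 1000 UMIs, 43.6% (37.5 to 49.8) and 34.1% (26.9 to 41.9) of monocytes had a Chil3 UMI (54.2% and 41.8% unthinned), against 0.147% and none of the 983 male lymphocytes, which allows up to 0.305%. In Fcrls-high cells Chil3 was at 1 and 2 UMIs, and in Lyve1-high AGMs at 1 and 0 UMIs, so the 2 clusters richest in Retnla had next to no Chil3. In neutrophils it stood at 917 CPM (723 to 1148) and 607 CPM (456 to 792), yet 5 cells of each library carried all of it, 1 female cell holding 49 of the 76 UMIs and 2 male cells holding 23 and 21 of the 54. The neutrophil level is thus the level of a few cells and not of the class.

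Among monocytes, Chil3 marked the Plac8-rich part. It was at 1924 and 1892 CPM in the sub-cluster led by Gm9733, Plac8 and Hp (165 and 95 cells), and at 464 and 258 CPM in the sub-cluster led by Ace, Nr4a1 and Adgre4 (107 and 70 cells), genes known from the patrolling monocytes of blood. The remaining sub-cluster, led by Gm9733, Sirpb1c and Gm34084, had 920 CPM in 25 female cells and 16.9 CPM, a single UMI, in 12 male cells. Of the 165 female Plac8-rich monocytes 91 had both a Chil3 and an Fn1 UMI, as did 48 of the 95 male ones.

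Other AGMs held Chil3 in the female library, at 172 CPM (157 to 187, 496 UMIs), and hardly any in the male library, at 1.83 CPM (4 UMIs). These transcripts lay in 41 of 652 female cells and in 3 of 530 male cells, and 7 female cells held at least 50% of them. By cluster, the 171 female cells led by Ecm1, AA467197 and Ccl7 were at 413 CPM and their 64 male counterparts had no UMI, which allows up to 13.2 CPM. The cluster led by Mmp12, Wfdc17 and Aif1 stood at 141 and 4.14 CPM, the one led by Zmynd15 at 73.1 and 1.13 CPM, and the one led by Ms4a7 had none in either library. The 41 female cells carried C1qa, a complement gene of resident macrophages, at 4877 CPM, against 5645 CPM in the 611 AGMs without Chil3. Of other macrophage genes, Adgre1 was at 269 against 426 CPM and Mertk at 54.6 against 114 CPM. They also carried the 9 monocyte markers at 383 against 129 CPM, Ly6c2 at 191 against 10.9 CPM, and Fn1 at 68.3 against 8.61 CPM. The 4 cells highest in Chil3, with 56, 48, 41 and 31 of the 496 UMIs, held no monocyte marker UMI, the next, with 28, held 2, and none of the 5 held an Fn1 UMI. The 25 cells with 5 or more Chil3 UMIs, however, had the monocyte markers at 435 CPM, Ly6c2 at 257 CPM and Fn1 at 99.8 CPM as a pool. The part of monocyte transcripts in the Chil3 level was not tested.

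**Figure D3:**
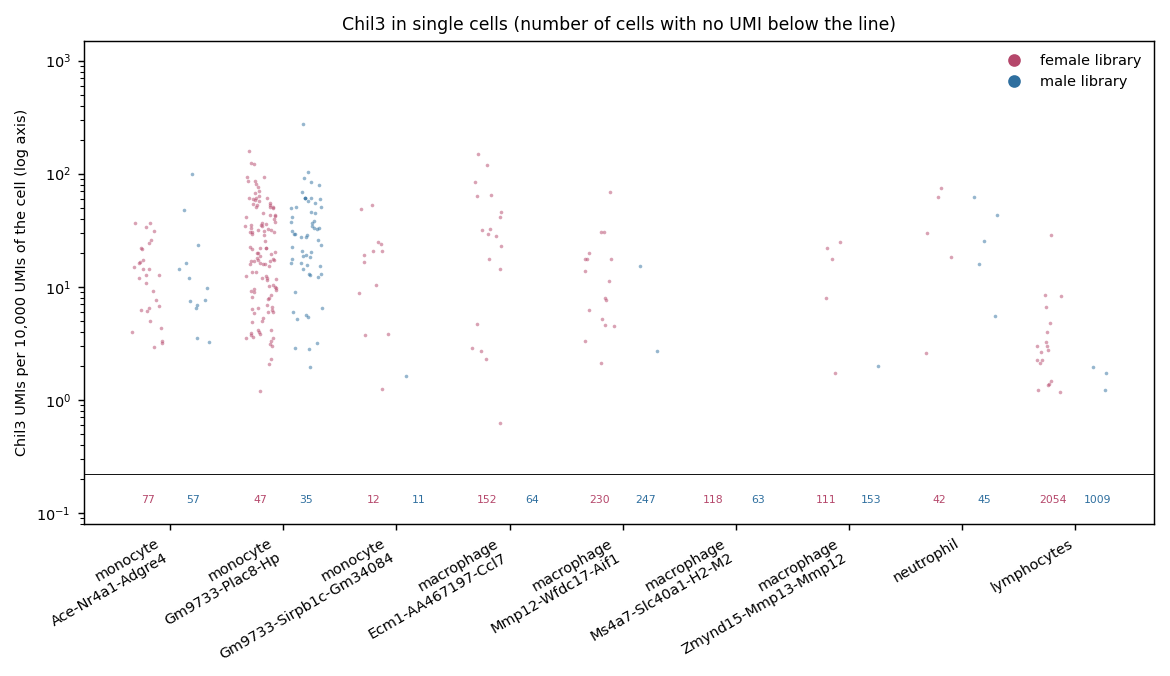
Chil3 in single cells (y axis, UMIs per 10000 UMIs of the cell, log axis) by sub-cluster (x axis), with each point 1 cell of the female or male library and the number of cells without a UMI under the line. In the cluster led by Ecm1 the points are female cells, since none of the 64 male cells had a UMI.

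Ear2 joined the Fcrls-high cluster and the Ace-led monocytes. Fcrls-high cells held 211 UMIs in the female library (803 CPM, 698 to 919) and 306 in the male (755 CPM, 673 to 845), and 47.3% and 47.2% of them had a UMI after thinning. Monocytes followed at 176 CPM (150 to 205) and 237 CPM (198 to 280), of which the Ace-led sub-cluster reached 524 and 663 CPM and the Plac8-rich one 87.2 and 93.9 CPM. Between these 2 sub-clusters Ear2 and Chil3 thus ran in opposite directions in both libraries, while the small one led by Gm9733 and Sirpb1c had Ear2 at 56.9 and 102 CPM. Lyve1-high AGMs were at 73.2 and 83.9 CPM and DCs at 48.8 and 89.8 CPM, with intervals that overlapped each other. Without the 5 highest cells of each class and library these were 18.9 and 24.0 CPM in Lyve1-high AGMs, from 4 and 9 UMIs, and 35.4 and 51.8 CPM in DCs. Other AGMs were at 6.57 and 9.14 CPM. Lymphocytes were at 1.37 and 0.244 CPM, from 12 UMIs and 1 UMI.

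Fn1 was again highest in the Fcrls-high cluster, at 4847 CPM (4585 to 5121) in the female and 6149 CPM (5910 to 6395) in the male library, and 94.6% and 95.5% of thinned cells had a UMI. Monocytes stood at 1042 CPM (978 to 1109) and 1160 CPM (1074 to 1252), with 1477 and 1769 CPM in the Plac8-rich part and 99.8 CPM and no UMI in the Ace-led part. Within Fcrls-high cells, the part led by Fcrls, Socs6 and Hr was the higher, at 6115 and 6931 CPM. The shallower part led by Il1rn was at 3301 and 4421 CPM. DCs were at 137 and 155 CPM, other AGMs at 13.1 and 16.9 CPM, lymphocytes at 7.18 and 6.34 CPM, and neutrophils had no UMI, which allows up to 36.2 and 33.7 CPM.

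In Lyve1-high AGMs the Fn1 level, 1577 CPM (1424 to 1742) and 687 CPM (607 to 774), was that of a few cells. The 5 highest cells held 358 of 388 female and 246 of 270 male UMIs, and the other 84 and 159 cells stood at 146 and 65.7 CPM. These 5 cells differed from the rest of the cluster in genes looked up after their Fn1 values were known. As a pool they carried 60 and 30 UMIs of Alox15, 79 and 40 of Prg4 and 102 and 66 of Saa3, with 7 and 2 of Gata6, the transcription factor of serous cavity macrophages, and none of Lyve1. These lay in some of the 5 only, Alox15 and Prg4 each in 4 female and 2 male cells and Gata6 in 2 and 1. The other cells of the cluster had no Alox15 or Saa3 UMI, 1 and 0 Prg4 UMIs, 0 and 1 Gata6 UMI, and 146 and 355 Lyve1 UMIs. Retnla in these 5 cells was at 7977 and 12796 CPM, against 11622 and 9447 CPM in the other cells, and 2 female and 3 male cells of these held it. Grouped instead by a Prg4 or Alox15 UMI, 5 female and 2 male cells held 300 and 220 Fn1 UMIs and 66 and 0 Retnla UMIs, so the male Retnla level above came from the cells without these genes. At 2 times the doublet rate, 4 of the 5 female and none of the 5 male cells would have been removed.

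**Figure D4:**
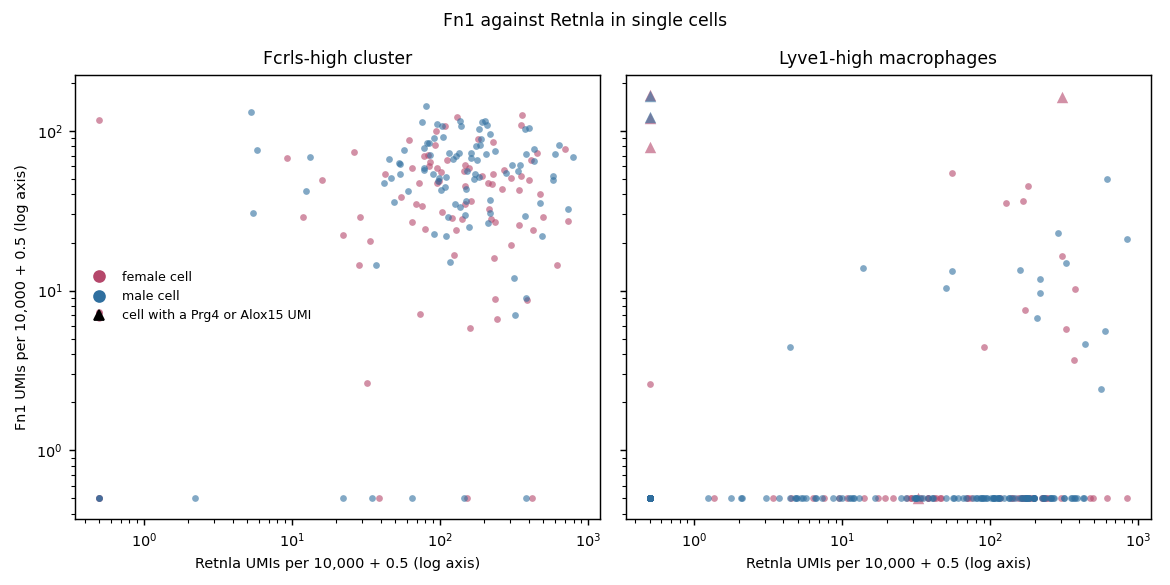
Fn1 (y axis) against Retnla (x axis) in single cells, both in UMIs per 10000 UMIs of the cell plus 0.5 on log axes, with one panel per cell class; triangles are cells with a Prg4 or Alox15 UMI. Fcrls-high cells were high in both genes, and in Lyve1-high AGMs the 5 cells highest in Fn1 in each library included 4 of the 5 female and both male triangles.

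The lysozyme genes differed in reach. Fcrls-high cells held Lyz1 at 3839 CPM (3606 to 4083) in the female library and 5441 CPM (5216 to 5673) in the male, where 54.1% and 79.8% of thinned cells had a UMI, and at 748 and 272 CPM in Lyve1-high AGMs. The latter fell to 125 and 103 CPM without the 5 highest cells of each library. Every other named myeloid class lay under 100 CPM: other AGMs at 20.8 and 11.9 CPM, monocytes at 36.9 and 80.0 CPM and DCs at 8.99 and 88.2 CPM, against 5.13 and 5.85 CPM in lymphocytes. In the male DCs 1 cell held 37 of the 53 Lyz1 UMIs, and in female monocytes 1 cell held 22 of 35. Within Lyve1-high AGMs the Mucl1-led part had 1141 and 423 CPM and the Fcna-led part 23.1 and 111 CPM.

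Lyz2 was a gene of all mononuclear phagocytes. Monocytes were highest, at 17672 CPM (17406 to 17942) and 14313 CPM (14006 to 14626), followed by Fcrls-high cells at 10962 and 11148 CPM, Lyve1-high AGMs at 11017 and 9734 CPM and other AGMs at 9550 CPM (9437 to 9663) and 5736 CPM (5636 to 5837). Between 95.8% and 98.9% of thinned cells of these 4 classes had a UMI in either library. The high monocyte level was not shared by all monocytes. It was 22068 and 18180.5 CPM in the Plac8-rich part. The Ace-led part, at 6134 and 5723 CPM, lay below Fcrls-high cells and Lyve1-high AGMs in both libraries. Neutrophils were at 2728 and 2664 CPM and DCs at 1430 and 2359 CPM, against 94.3 and 92.9 CPM in lymphocytes. Among the other AGMs, the Ecm1-led cluster was at 14223 and 7391 CPM. Since 13.9% of the 3′ windows of each gene were shared with the other, reads from those windows do not tell the copies apart. How such reads were counted was not examined.

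Aldh1a2 had the fewest UMIs of the 7 genes. In the Fcrls-high cluster, which held 60.9% and 74.7% of them (74.6% and 89.3% for Lyz1), it stood at 297 CPM (235 to 370, 78 UMIs) and 168 CPM (130 to 213, 68 UMIs). After thinning, 29.7% (19.7 to 41.5) and 10.1% (4.73 to 18.3) of these cells had a UMI, and 50% and 35.7% without thinning. Lyve1-high AGMs had 8 and 6 UMIs (32.5 and 15.3 CPM), DCs 22 and 9 UMIs (28.3 and 14.97 CPM), and other AGMs 5 and 0 UMIs. The few plasmacytoid DCs stood second in order with 6 UMIs and 1 UMI (62.3 and 28.0 CPM), and their intervals overlapped those of Lyve1-high AGMs. In the male library their interval, 0.710 to 156 CPM from 1 UMI, also overlapped that of Fcrls-high cells. Lymphocytes had 7 and 3 UMIs in 2073 and 1012 cells, or 0.798 and 0.731 CPM.

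Against the other AGMs, genes were read as different where they had at least 50 UMIs on either side in both libraries and were past 2-fold the same way in both. By that rule 6.76% of the 5132 genes measured were higher in the Fcrls-high cluster and 11.4% were lower. Of the 7 genes, 6 could be measured, Chil3 falling short in the male library, and 5 were higher: Retnla by 388-fold (324 to 469) and 267-fold (228 to 316), Fn1 by 369-fold and 364-fold, Lyz1 by 185-fold and 458-fold, Ear2 by 122-fold (76.3 to 207) and 82.6-fold (52.6 to 137), and Aldh1a2 by 172-fold and at least 122-fold. Lyz2 was 1.15-fold (1.10 to 1.19) and 1.94-fold (1.88 to 2.01) higher and not past 2-fold. A gene that reached 50 UMIs through the Fcrls-high side alone, as Ear2, Fn1 and Aldh1a2 did in both libraries and Lyz1 in the male one, could hardly have been counted otherwise, and the members were named for such patterns, so the count describes them and is no test.

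The Lyve1-high AGMs gave a shorter list. There 5.48% of 5127 genes were at least 2-fold higher than in other AGMs and 5.62% lower, and of the 4 members measured 3 were higher: Retnla by 264-fold (220 to 319) and 138-fold (117 to 163), Fn1 by 120-fold and 40.6-fold, and Lyz1 by 36.0-fold and 22.9-fold. Fn1 reached 50 UMIs through the Lyve1-high side alone in both libraries and Lyz1 in the male one, and for both the few highest cells described above set the ratio. With cells gated one by one on marker genes, 1 member was called higher in place of 3. With at most 1.2% mitochondrial UMIs it was also 1, but 5 female and 2 male Lyve1-high cells were left, too few for a reading. Between the 2 clusters Retnla was 1.47-fold and 1.94-fold higher in Fcrls-high cells, Fn1 3.07-fold and 8.95-fold, Lyz1 5.13-fold and 20.0-fold, Ear2 10.97-fold (6.78 to 18.9) and 8.996-fold (6.27 to 13.3) and Aldh1a2 9.13-fold (4.41 to 21.9) and 10.995-fold (4.80 to 31.0). For Lyz2 the ratio was 0.99 (0.944 to 1.05) and 1.15 (1.10 to 1.196). These ratios leaned on a few Lyve1-high AGMs. Without the 5 highest cells of each class and library, Fn1 was at 4080 and 5687 CPM in Fcrls-high cells against 146 and 65.7 CPM in Lyve1-high AGMs, Lyz1 at 3002 and 4562 against 125 and 103 CPM, and Retnla at 13460 and 16138 against 5575 and 7708 CPM. Ear2 was then at 688 and 640 against 18.9 and 24.0 CPM. Aldh1a2 was at 231 and 135 CPM, against 4.49 CPM from 1 UMI and 0 CPM.

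Several of these genes were detected in the same single cells. Of 84 female Fcrls-high cells 20 had a UMI of all 5 of Retnla, Fn1, Lyz1, Ear2 and Aldh1a2, and 72 had at least 3 of them, without thinning. Of 98 male cells 29 had all 5 and 88 at least 3, and 1 cell had none. In the Lyve1-high cluster no cell of either library had all 5, and 12 of 89 and 12 of 164 had at least 3. As background, 1 of 2073 female and 0 of 1012 male lymphocytes had all 5, and 2 and 1 had at least 3. Retnla and Fn1 were both present in 75 and 90 Fcrls-high cells, whereas 56 female and 118 male Lyve1-high cells had Retnla and, among them, 11 and 15 also Fn1.

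Between the 2 libraries most ratios were small in the Fcrls-high cluster. Female over male, Retnla was 0.86 (0.83 to 0.90), Fn1 0.79 (0.74 to 0.84), Lyz1 0.71 (0.65 to 0.76), Ear2 1.06 (0.89 to 1.27), Lyz2 0.98 (0.94 to 1.03) and Aldh1a2 1.77 (1.26 to 2.49). None of the 6 members measured was past 2-fold, against a background of 1.2% of 1246 genes. Over the whole cluster Retnla, Fn1 and Lyz1 were the lower in the female library, Aldh1a2 the higher, and the intervals of Ear2 and Lyz2 included equality. Retnla differed by sub-cluster, at 1.15 (1.08 to 1.23) in the Il1rn-led and 0.76 (0.72 to 0.79) in the Fcrls-led cells, and Lyz1 was 0.96 (0.84 to 1.10) and 0.67 (0.61 to 0.73).

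In Lyve1-high AGMs 2.37% of 1222 genes were past 2-fold, as were 2 of the 4 members measured, Fn1 at 2.30 (1.96 to 2.69) and Lyz1 at 2.75 (2.15 to 3.52). Without the 5 highest cells of each library Lyz1 was 1.21 (0.705 to 2.04) and Fn1 2.22 (1.25 to 3.96), the latter from 30 and 24 UMIs. At 2 times the doublet rate the Fn1 ratio turned to 0.40. Retnla was 1.14 (1.08 to 1.197) over all cells and 0.72 (0.67 to 0.78) without the 5 highest cells of each library, so its direction rested on the highest cells. By sub-cluster, Lyz1 was 2.70 (2.08 to 3.53) in the Mucl1-led and 0.21 (0.02 to 0.85) in the Fcna-led part, the latter from 2 and 21 UMIs. Retnla was 1.21 and 0.67 in these parts, and Fn1 3.12 and 2.68. In other AGMs 1.79% of 6103 genes were past 2-fold, and 1 of the 4 members measured, Chil3 at 93.8 (36.4 to 346). With 496 female and 4 male UMIs, Chil3 reached the minimum for measurement through the female side alone, so this count is no test. With cells gated one by one on marker genes the Chil3 ratio was 4.28. Of the monocyte markers Ly6c2 (24.6 against 4.11 CPM), Plac8 (31.8 against 11.4 CPM) and Spn (22.5 against 9.14 CPM) were also past 2-fold higher in the female library in this class, as were the neutrophil markers S100a8 (86.8 against 5.94 CPM) and S100a9 (92.7 against 13.3 CPM), the T cell marker Trbc2 (25.6 against 6.86 CPM) and the B cell marker Cd79a (20.1 against 3.20 CPM), and the part of such transcripts in the ratio was not tested. Each of these markers also reached the minimum through the female side alone, so their calls are no test either. In other AGMs Lyz2 was 1.66 (1.63 to 1.70), and Retnla 0.59 (0.46 to 0.76) at levels next to those of lymphocytes. Less the lymphocyte level, the direction of that Retnla ratio reversed.

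In monocytes 1.09% of 2743 genes were past 2-fold, and of the 5 members measured Retnla was, at 0.30 (0.19 to 0.47). With 32 female and 64 male UMIs, Retnla reached 50 through the male side alone, so this count is no test. In lymphocytes the Retnla ratio was 0.51 (0.43 to 0.61), and 0.33 (0.27 to 0.41) without the 5 highest cells of each library, since 1 female droplet held 104 of 275 UMIs. Chil3 in monocytes was 1.16 (1.06 to 1.27), but 0.891 where only cells with at most 1.2% mitochondrial UMIs were kept, and Fn1 was 0.90 (0.81 to 0.99), but 1.03 without the 5 highest cells. Ear2 was 0.74 (0.59 to 0.94) and Lyz2 1.23 (1.202 to 1.27). In lymphocytes 0.482% of 8928 genes were past 2-fold and none of the 3 members measured. In DCs Retnla was 0.31 (0.25 to 0.38), with at least 50% of the UMIs of each library in 3 cells, and Lyz2 was 0.61 (0.56 to 0.66), but 1.105 in cells with at most 1.2% mitochondrial UMIs.

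**Figure D5:**
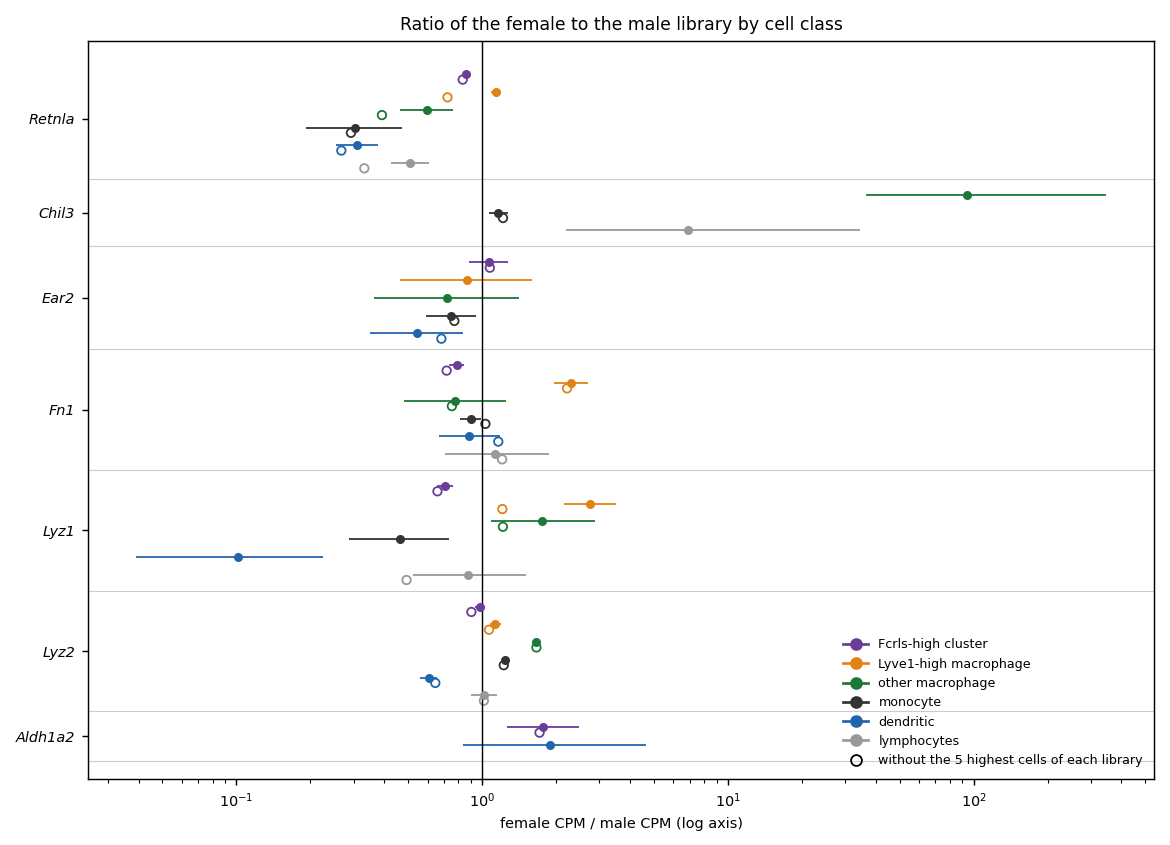
Ratio of female to male CPM (x axis, log axis) for each gene (y axis) by cell class; lines are 95% intervals for counting error and open points leave out the 5 highest cells of each library. Chil3 in other AGMs lay farthest from 1, and Retnla in Lyve1-high AGMs crossed from 1.14 to 0.72 without the 5 highest cells.

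Lymphocytes give the level that free RNA and mixed droplets can leave in cells not known to express these genes. Of the 275 female Retnla UMIs in lymphocytes, 104 came from a single B cell droplet that also held 15 Lyz1 and 2 Fcrls UMIs, and the next cell held 16. In the male library the highest held 22, and 188 of the 189 positive lymphocytes held fewer than 10. Without the 5 highest cells the lymphocyte level was 16.7 CPM in the female and 50.3 CPM in the male library, 3.30% and 3.64% of the Retnla level over all cells of the same library (506 and 1381 CPM). For Lyz2 the same share was 2.37% and 2.32% and for Fn1 2.64% and 1.04%. In the 381 and 169 lymphocytes without any macrophage, monocyte, DC or neutrophil marker UMI, Retnla was still at 18.1 CPM (11.4 to 27.1) and 52.6 CPM.

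Other genes tied to alternative activation were followed in a list of 25, chosen with earlier results of these data known. In the Fcrls-high cluster 12 could be measured against other AGMs, and 4 were higher, namely Irf4, Klf4, F13a1 and Ccl24, and 2 lower, Il13ra1 and Msr1, beside 6.76% and 11.4% of all genes, with a median log2 ratio of 0.26 beside -0.06. Irf4, a transcription factor, stood at 190 and 163 CPM against 5.53 and 10.5 CPM. Irf4 and Ccl24 reached 50 UMIs through the Fcrls-high side alone in both libraries and could hardly have been counted otherwise. In Lyve1-high AGMs 14 could be measured and 8 were higher and none lower, beside 5.48% and 5.62% of all genes, with a median log2 ratio of 2.94 beside -0.01. Those 8 were Mrc1, Cd163, Clec10a, Mgl2, Klf4, F13a1, Ccl24 and Folr2. Of these, Clec10a, Ccl24 and Folr2 reached 50 UMIs through the Lyve1-high side alone in both libraries. Since the list was chosen with earlier results known, the counts and medians of both clusters describe it and are no test. Mrc1, the mannose receptor, stood at 1365 and 1910 CPM there, at 380 and 370 CPM in Fcrls-high cells and at 245 and 229 CPM in other AGMs. Folr2, a folate receptor, was at 1276 and 2251 CPM in Lyve1-high AGMs and at 7.61 and 29.6 CPM in Fcrls-high cells.

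Of 15 classical activation genes, 6 could be measured in each cluster and none was higher than in other AGMs. In Fcrls-high cells 3 were lower, beside 11.4% of all genes, with a median log2 ratio of -0.99 with genes at 0 set to their bound, and in Lyve1-high AGMs 2, beside 5.62%, with a median log2 ratio of -0.89. In Fcrls-high cells Il1b and Cd86 were among those lower, and in Lyve1-high AGMs Il1b and Tnf were lower. Nos2, the inducible nitric oxide synthase, was at 0 CPM in both clusters. Of 20 retinoic acid pathway genes 2 could be measured, and Dhrs3, which reduces retinaldehyde, was at 398 and 394 CPM in Lyve1-high AGMs, past 2-fold beside 5.48% of all genes, and at 183 and 175 CPM in Fcrls-high cells, against 161 and 115 CPM in other AGMs. Aldh1a1 and Aldh1a3, the other retinaldehyde dehydrogenases, had no more than 1 UMI in either cluster of either library. Of 8 fibronectin receptor genes 4 could be measured, and none was higher in either cluster, with Sdc4 lower in Fcrls-high cells, beside 11.4% of all genes, and Itgav lower in Lyve1-high AGMs, beside 5.62%. With so few genes measured, neither list is read as differing from all genes.

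Listed relatives of Retnla, Chil3 and Ear2 were also followed. Retnlg, a resistin-like gene of neutrophils, was at 12130 and 8655 CPM in neutrophils and at 7.61 and 4.93 CPM in Fcrls-high cells, and Retnlb was at 0 in every class named here. Chil1 was at 205 and 214 CPM in neutrophils, and Chil4, with which Chil3 shares 3′ sequence, had 2 female UMIs in monocytes and 0 male ones. Ear6 and Ear10 were at 0 and Ear1 at 0 or 1 UMI in Fcrls-high cells, Lyve1-high AGMs, monocytes and neutrophils. The Ear2 signal thus had no counterpart in these genes, though how reads from shared 3′ windows were counted was not examined. Only 3 of the 9 listed relatives of Ear2 could be measured in Fcrls-high cells. None was higher than in other AGMs, and Rnase4 and Ang were lower, beside 11.4% of all genes.

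Genes with the most similar pattern were ranked by Pearson's r of log2(CPM + 10) over 24 points, 12 classes in each of 2 libraries, among 10201 genes. The points share libraries and cells and the values are a description. The closest to Retnla were Fgfr1 (0.91), Fcrls (0.91), Gfra2 (0.90), Rem1 (0.90) and Pltp (0.88), and to Chil3 Gm9733 (0.94), Msrb1 (0.90), Nr4a1 (0.89), Sirpb1c (0.89) and Scnn1a (0.88). Ear2 and Fn1 were each other's closest (0.94), ahead of Glud1 for Ear2 and Socs6 for Fn1. Lyz1 was closest to Rem1 (0.95) and Gfra2 (0.90), and Aldh1a2 to Rem1 (0.96) and Hr (0.94). Lyz2 was closest to Clec4a2 (0.95) and Cebpa (0.95), the gene of a myeloid transcription factor. Between members, Retnla and Chil3 gave -0.26 and Lyz1 and Lyz2 0.57.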

How the data were processed

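The authors deposited, for each library, a matrix of raw UMI counts per gene and cell barcode, made with Cell Ranger 4.0.0 (file header) against mm10 (submitters' processing notes). The annotation release is not given in the sources used here. From 3963 female and 2685 male barcodes (16218309 and 9512670 UMIs), those with at least 200 genes and at most 15% mitochondrial UMIs were kept. Doublets (0.8% per 1000 barcodes, ranked by Scrublet in scanpy 1.11.5) were removed, 124 and 52 cells. The study's stated 1.2% mitochondrial ceiling would have kept 333 and 366 of these barcodes, far fewer cells than the study states after its filters, so its scale or barcode set may differ from the one used here. It was run as an alternative and is not taken to be the study's own filter. Libraries were integrated in Seurat 5.3.0 with sctransform 0.4.2 (R 4.3.3, 2000 features, 20 components, resolution 1, 115 genes held out). A cluster was named where at least 3 markers were raised 2-fold in at least 20% of its cells and its 10 leading genes did not oppose the name.

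Counts were summed per class and library into CPM with exact Poisson intervals. Shares have Clopper-Pearson intervals, ratios exact conditional binomial ones (scipy 1.17.1, 95%), and 0 was bounded by 3 counts. The interval code was tested on simulated data. The named genes were the 7 members, listed relatives and the 5 genes most alike. Members and lists were chosen with earlier results of these data known, and class borders after the clusters were seen. Some listed genes are not reported here.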

Additional observations from a re-analysis of the deposited data

Results flagged for a closer look

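Some female to male ratios pointed opposite ways in different classes, and none of these differences was tested, since each sex had 1 library. Retnla stood at 1.139 in Lyve1-high AGMs and at 0.3031 in monocytes. The former turned to 0.723 without the 5 highest cells, 0.864 with a 5% mitochondrial ceiling and 0.958 by the mean over cells. The latter came from 32 and 64 UMIs, and female monocytes, at 33.8 CPM, lay next to lymphocytes at 31.4 CPM. In lymphocytes the Retnla ratio was 0.508, and 0.332 without the 5 highest cells. Fn1 stood at 2.296 in Lyve1-high AGMs, where it turned to 0.399 at 2 times the doublet rate, and at 0.7883 in Fcrls-high cells. Lyz1 stood at 2.748 in Lyve1-high AGMs, where it was 1.21 (0.705 to 2.04) without the 5 highest cells, and at 0.102 in DCs, where 1 male cell held 37 of 53 UMIs. Lyz2 stood at 1.665 in other AGMs and at 0.6062 in DCs, where its direction reversed with the 1.2% mitochondrial ceiling.

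Some cells outside the classes compared in the report also carried some of the genes above the lymphocyte level, not always in both libraries. In endothelial-like cells Retnla was at 640.8 CPM in the male library, with 100 of 106 UMIs in 1 cell, and Chil3 at 151.1 CPM. In the female library each was at 39.0 CPM from 6 UMIs. Lyz2 was at 2633 CPM in female and 2660 CPM in male endothelial-like cells. In an unnamed cluster of shallow cells, with medians of 781.5 and 669.5 UMIs, Retnla was at 147 CPM in the female and 521.1 CPM in the male library. Lyz2 was at 3342 and 1820 CPM there. In proliferating cells Lyz2 was at 151.6 CPM in the female and 115 CPM in the male library, while Retnla, at 7.98 and 21.6 CPM, lay below lymphocytes.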

How the results depend on the processing

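No paired analysis was possible because each sex had 1 library. Of 22 female to male ratios the direction was kept by 22 at resolution 0.5, 21 with no gene held out and 21 with a 5% mitochondrial ceiling, against 14 of 18 with the 1.2% ceiling. Retnla in Fcrls-high cells was 0.827 at 5%, 0.640 at 1.2% and 0.959 by the mean over cells. Retnla in Lyve1-high AGMs reversed to 0.864 at 5%, 0.958 by the mean and 0.723 without the 5 highest cells, and was 1.005 by marker gate and 1.2 with no gene held out. In lymphocytes it was 0.327 at 5%, 0.324 at 2 times the doublet rate, 0.342 by gate and 0.332 without the 5 highest. Less the lymphocyte level, Retnla in other AGMs reversed to 1.206.

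Chil3 in monocytes was 0.891 at 1.2%, 1.392 by gate and 1.015 by the mean, in other AGMs 4.283 by gate, and in neutrophils 0.618 by gate. Fn1 in Lyve1-high AGMs was 1.511 at 5%, 0.399 at 2 times the doublet rate and 2.835 by the mean, and in monocytes 1.032 without the 5 highest cells. Lyz1 in Fcrls-high cells was 0.461 at 1.2% and 0.846 by the mean. Lyz2 in Lyve1-high AGMs was 0.961 at 2 times the doublet rate, in DCs 1.105 at 1.2%, and in other AGMs 1.767, 2.035, 1.444 and 1.588 at 5%, at 1.2%, by gate and by the mean.

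The lymphocyte Retnla level was 19.8, 45.7, 19.5, 38.9, 16.7 and 18.1 CPM in the female library (5%, 1.2%, 2 times the doublet rate, mean, without the 5 highest, no myeloid marker UMI) and 81.9, 91.1, 78.3, 50.3 and 52.6 CPM in the male one (1.2%, gate, mean, without the 5 highest, no myeloid marker UMI). Genes higher and lower in Fcrls-high cells numbered 95 and 236 with at least 200 UMIs and 43 and 50 at 1.2%, and in Lyve1-high AGMs 68 and 130, and 5 and 34, since fewer genes reached the minimum. In Lyve1-high AGMs 1 member was higher at 1.2% and 1 by gate. At 1.2% the Fcrls-high cluster kept 27 and 47 cells and Lyve1-high AGMs 5 and 2, too few for their ratios, and the gate gave no Fcrls-high class. The cause of the other shifts was not tested. Depth limits what can be said of Aldh1a2, with 78 and 68 UMIs in Fcrls-high cells, and of Chil3 there, with 1 and 2.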
